A study of Mus musculus with 2 samples.

Results

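Interferon-stimulated genes were followed in prostaspheres, spheres that prostate epithelial cells form in culture, with and without Sox9. A list of 39 such genes was read by symbol from the array annotation, and all 39 were found, with 61 probes, among 27827 gene names on the array. Each gene was read from its brightest probe. The list was chosen by symbol with the log2 ratios of both arrays already in view, and its genes were ordered by the difference between those ratios. Every level, ratio and count below is therefore a description, and no test was made on them.

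The data come from 2 Agilent arrays of mouse genes, which shared 1 slide. Each held a Cy5 and a Cy3 RNA, so 4 RNAs were measured once each. In the genotype comparison, wild-type prostaspheres given tamoxifen (TAM) were labeled with Cy5 and TAM-treated Sox9 null prostaspheres with Cy3. In the treatment comparison, vehicle-treated prostaspheres were labeled with Cy5 and TAM-treated ones with Cy3, and all cells were of the floxed line. That line carries ERCre and floxed Sox9 (ERCre+/+Sox9flox/flox), so TAM deletes Sox9 through a Cre that the study took from Rosa26ERCre mice, in which the Rosa26 locus drives it in most cell types. The labels give the genotype of the vehicle-treated cells as Sox9 null too, so the treatment label was used to tell them apart from the deleted ones. The source names, SOX9 for the Cy5 and Ctrl for the Cy3 RNA of both arrays, were not used. Whether the wild-type cells carried ERCre is not given.

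The labels give C57/Bl6J as the background of all RNAs and the UGS epithelium of embryos at 16 dpc as their source, whereas the methods of the study describe prostaspheres from adult prostate. All cultures had dihydrotestosterone, 6 days in Matrigel and then 6 days of TAM (5 µM) or vehicle. The wild-type and the deleted cells came from different mouse lines, so Sox9, the line and the culture cannot be told apart in the genotype comparison. Dyes were swapped on 0 arrays, and Cy5 held the RNA of cells with Sox9 on both, so a dye bias cannot be told apart from a difference between the RNAs either.

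Interferons are secreted proteins that cells release on sensing viral or misplaced nucleic acids. Type I interferons bind the receptor made of Ifnar1 and Ifnar2, and the kinases Jak1 and Tyk2 then activate Stat proteins, Stat2 among them. With Irf9 these form a complex that binds the interferon-stimulated response element (ISRE) in the promoters of its targets, whereas interferon gamma acts on the gamma-activated site (GAS). The targets include RNA sensors, antiviral enzymes, GTPases and the transcription factor Irf7, which in turn drives more interferon. Epithelial cells, prostate epithelium among them, can mount this response without immune cells.

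The promoters of the list carry the ISRE more often than promoters in general. The genes were chosen as known targets of interferon, so this describes the list and is not a result of the arrays. RefSeq promoter windows (GRCm38.p6, 250 bases before to 50 after each start) matched 28 of the 39 genes. An ISRE, sought on both strands as GAAA followed after any 2 bases by GAAA again, lay in the windows of 17 of the 28 genes (60.7%), against 3.99% of 27025 genes with a window. TTCNNNGAA, the GAS core, lay in those of 8 genes (28.6%), against 9.55% of all genes. The next lines show ISREs of 5 genes that differed strongly between the arrays or were far lower in wild-type cells, and then of Oas3 and Ifit1, which had log2 ratios of -0.27 and -0.28 in the genotype comparison. Both are dim, and the scanner software's log ratios for them were -1.52 and -1.63. Capitals mark each ISRE, and overlapping ones run together. Each stretch is given 5′ to 3′ on the strand of its gene and ends before the start of transcription.
Isg15: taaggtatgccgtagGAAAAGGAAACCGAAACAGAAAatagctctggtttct
Ifit3: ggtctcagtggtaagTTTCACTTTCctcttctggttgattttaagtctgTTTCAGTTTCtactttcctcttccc
Oas1a: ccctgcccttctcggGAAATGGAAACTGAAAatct
Bst2: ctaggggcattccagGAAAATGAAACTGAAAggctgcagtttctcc
Rsad2: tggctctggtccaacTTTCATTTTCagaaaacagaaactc
Oas3: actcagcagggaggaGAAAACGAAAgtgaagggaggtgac
Ifit1: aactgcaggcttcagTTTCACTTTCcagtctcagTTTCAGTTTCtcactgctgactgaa

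The stretch of Isg15 lies at chr4:156200860-156200911 on the minus strand, and its ISREs begin 78 bases before the start. That of Ifit3 lies at chr19:34583358-34583431 on the plus strand, of Oas1a at chr5:120907526-120907560 on the minus strand, and of Bst2 at chr8:71537572-71537617 on the minus strand. Rsad2 is shown from chr12:26456548-26456587 and Oas3 from chr5:120777710-120777749, both minus, and Ifit1 from chr19:34640770-34640828, plus. A matching window did not mark the genes that differed most. It was present for 4 of 8 genes whose log2 ratios differed by at least 1 between the arrays and for 12 of 19 measured genes that differed by less. The windows of Irf7, Oasl1, Oasl2 and Xaf1 did not hold these letters. The 11 genes without a window in the table were Usp18, Iigp1, Oas2, Parp14, Parp9, Mx1, Mx2, Dhx58, Oas1b, Ifi27 and Rtp4.

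Sox9 was measured by 3 probes. For the genotype and the treatment comparison, in that order, the log2 ratios were 2.69 and 2.37 on the brightest probe and 1.18 and 1.27 on the second. The remaining probe went against the labels in both, with -1.22 in the treatment comparison. Where the probes lie relative to the deleted part of Sox9 was not determined. Of the markers on the array, 8 of 8 epithelial genes were well above background in all 4 RNAs, but so were 11 of 12 stromal and vascular genes. Between 53.9% and 56.2% of the 41174 probes were well above background in each RNA, by the scanner software's mark. A gene was counted as measured if either dye showed its probe well above background on both arrays, which held for 15122 genes. Spots of 1 probe differed by a median SD of 0.0362 and 0.0429 on the log2 scale, which leaves out the spread between cultures.

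The interferon-stimulated genes were lower in wild-type than in Sox9-deleted prostaspheres, and differed little between vehicle and TAM in the floxed line. Of the list, 38 genes were measured, and 36 of them had a log2 ratio below 0 in the genotype comparison, where 52.2% of all measured genes did. The median was -0.47, beside -0.01 over all measured genes, and the values ran from -1.68 to 0.22. At least 2-fold lower in wild-type cells were 10 of the 38, beside 1.08% of all measured genes, and 0 were 2-fold higher, beside 0.589%. In the treatment comparison the median was 0.18, beside 0.01 over all genes, with a range of -0.58 to 0.74. Here 31 genes lay above 0, beside 52.3% of all genes, and 0 were 2-fold lower (background 0.377%) or 2-fold higher (background 1.73%).

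**Figure D1:**
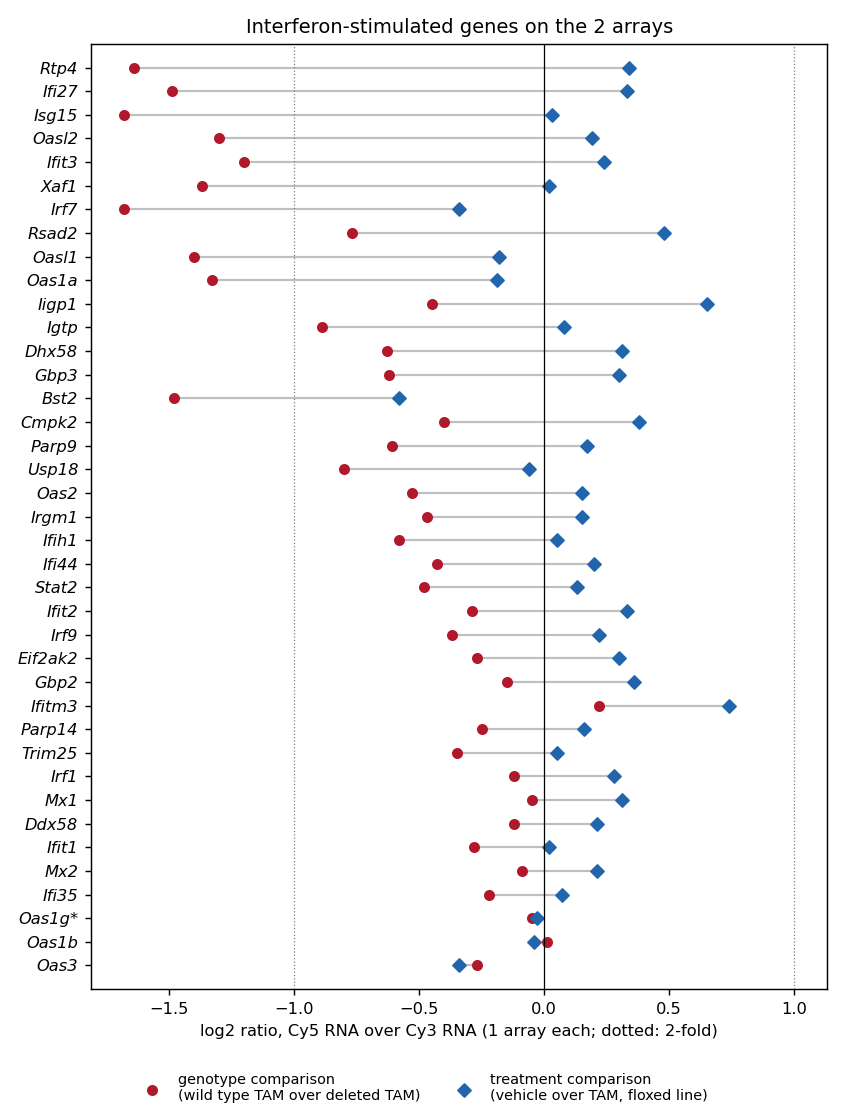
Each row is 1 gene, and the x axis is the log2 ratio of the Cy5 over the Cy3 RNA on the array of the genotype comparison (circles) and of the treatment comparison (diamonds), with 1 array each; the star marks Oas1g, which was not above background. The circles run from -1.68 to 0.22 and lie left of 0 for most genes, while the diamonds lie between -0.58 and 0.74.

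For 36 of the 38 genes the log2 ratio was higher in the treatment than in the genotype comparison, beside 51.4% of all genes, and the median difference was 0.66, beside 0.01. The difference was at least 1 for 11 genes, beside 2.17% of all genes, and at most -1 for 0, beside 0.086%. The gene just inside the line of 1 was Iigp1, at 1.11, and the one just outside Igtp, at 0.97. For the 2-fold line of the genotype comparison these were Ifit3, at -1.20, and again Igtp, at -0.89. Lower in wild type and higher in vehicle, at any size, were 30 of the 38 genes, beside 18.4% of all genes.

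Isg15, the ubiquitin-like protein that is joined to viral and host proteins, was among the genes that differed most. Its log2 brightness was 9.72 in wild-type RNA, 11.41 in the deleted RNA of the same array, 11.07 in vehicle RNA and 11.05 in the deleted RNA of the treatment comparison. The wild-type RNA was the dim one, and the other three lay within 0.36 of each other. Isg15 was thus 3.21-fold lower in wild-type than in deleted cells, while vehicle over TAM was 1.02-fold. Usp18, which removes Isg15 from its targets and damps receptor signaling, had log2 ratios of -0.80 and -0.06. For Trim25, a ubiquitin ligase that activates the sensor Rig-I, the log2 ratios were -0.35 and 0.05. Its log2 brightness of 12.04 in wild-type RNA was close to the 12.08 and 12.03 of the treatment comparison, so only the deleted RNA of the genotype comparison, at 12.39, stood apart.

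Rtp4, a transmembrane protein that aids receptors to the cell surface, had the largest difference of the list. The log2 brightness was 10.10 in wild-type RNA, against 11.74 in deleted RNA of the genotype comparison, 11.74 in vehicle RNA and 11.39 in deleted RNA of the treatment comparison. Its log2 ratios were -1.64 and 0.34, and it was 3.12-fold lower in wild-type cells. The probe that the array names Ifi27 came next, with log2 ratios of -1.49 and 0.33. The accession of that probe belongs to Ifi27l2a in RefSeq, a neighbour of the same family, so the family member behind the value is uncertain. Its log2 brightness was 7.66 in wild-type RNA and 9.15, 9.34 and 9.01 in deleted, vehicle and deleted RNA, and the other 2 probes under that name gave -1.36 and -1.12 in the genotype comparison. Xaf1, which opposes the apoptosis inhibitor Xiap, had a log2 brightness of 7.05 in wild-type RNA and of 8.41, 8.37 and 8.34 in the others, in the same order. The RNAs of the floxed line were here within 0.07 of each other, with or without TAM.

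Among the transcription factors, Irf7 differed far more than Irf9 and Stat2. Its log2 brightness was 8.08 in wild-type RNA, 9.76 in deleted RNA of the genotype comparison, 9.03 in vehicle RNA and 9.37 in deleted RNA of the treatment comparison. It was 3.20-fold lower in wild-type cells, with log2 ratios of -1.68 and -0.34. The log2 ratios of Irf9 were -0.37 and 0.22 and those of Stat2 were -0.48 and 0.13, neither of them 2-fold on either array. Irf1, which responds most to interferon gamma, had -0.12 and 0.28.

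The oligoadenylate synthetases, which make the messenger that activates RNase L, differed among themselves. Oas1a had a log2 brightness of 8.29 in wild-type RNA, against 9.62 in deleted, 9.24 in vehicle and 9.44 in deleted RNA, and was 2.52-fold lower in wild-type cells. Oasl1 (8.05 against 9.45, 9.07 and 9.24) and Oasl2 (7.64 against 8.95, 8.92 and 8.74), which are related in sequence, were 2.64-fold and 2.47-fold lower. For each of these genes the wild-type RNA lay well below the RNAs of the floxed line. Oas2 had log2 ratios of -0.53 and 0.15. Oas3, whose difference of -0.07 was the lowest of the list, had -0.27 and -0.34. On the scanner software's log ratios Oas2 had -2.14 and 0.22 and Oas3 -1.52 and -1.04, so the size of the change of these dim genes is uncertain. Oas1b (0.01 and -0.04) counts among the 38 measured genes through Cy3 alone, and its Cy5 signals were not well above background. Oas1g was not well above background in any RNA. The Oas1 genes are close copies, and their probes may share RNA.

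The Ifit proteins bind foreign RNA and block its translation. Ifit3 was 2.30-fold lower in wild-type cells, with a log2 brightness of 9.51 there and 10.71, 10.71 and 10.46 in deleted, vehicle and deleted RNA. Ifit2 (-0.29 and 0.33) and Ifit1 (-0.28 and 0.02) were lower in wild-type cells by less, although the promoter stretches above show an ISRE for Ifit1 as for Ifit3. Ifit1 was dim, at 6.81 in wild-type RNA and 7.10 in deleted RNA of the genotype comparison, where log2 ratios are understated, and the scanner software's log ratios for it were -1.63 and 0.10.

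Of the proteins that act at membranes, Bst2, which tethers budding virus to the cell, was 2.80-fold lower in wild-type cells. Its log2 brightness was 12.49 in wild-type RNA, 13.98 in deleted, 13.25 in vehicle and 13.82 in deleted RNA. Unlike Rtp4, it was lower in vehicle than in TAM-treated cells of the floxed line too, with log2 ratios of -1.48 and -0.58. Of the 10 genes that were 2-fold lower in wild-type cells, Irf7, Oasl1 and Oas1a were the others below 0 in the treatment comparison, and when arrays were centred on their median instead, which put all measured genes at a median of 0.42, these 4 lay at 0.17 to 0.33, above 0 but below that median. Rsad2 (viperin), which blocks virus budding through lipid rafts, and its neighbour Cmpk2, a nucleotide kinase, had log2 ratios of -0.77 and 0.48 and of -0.40 and 0.38. On the scanner software's log ratios Rsad2 had -1.08 and Cmpk2 -1.03 in the genotype comparison, where 6.75% of all genes were 2-fold lower. Ifitm3, which blocks virus entry, was the one measured gene above 0 on both arrays, at 0.22 and 0.74.

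The RNA sensors Ddx58 (Rig-I), Ifih1 (Mda5) and Dhx58 (Lgp2) had log2 ratios of -0.12, -0.58 and -0.63 in the genotype comparison and of 0.21, 0.05 and 0.31 in the treatment comparison. The GTPases, which act on the vacuoles of intracellular microbes, had graded log2 ratios in the genotype comparison. These were -0.89 for Igtp, -0.62 for Gbp3, -0.47 for Irgm1, -0.45 for Iigp1 and -0.15 for Gbp2. In the treatment comparison they ran from 0.08 for Igtp to 0.65 for Iigp1, the second highest value of the list after Ifitm3. The antiviral GTPases Mx1 and Mx2, of which Mx1 is defective in many laboratory strains, were among the least different, with log2 ratios of -0.05 and 0.31 and of -0.09 and 0.21.

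The RNA-activated kinase Eif2ak2 (Pkr) had log2 ratios of -0.27 and 0.30, the ADP-ribosyltransferase genes Parp9 and Parp14 had -0.61 and 0.17 and -0.25 and 0.16, and Ifi44 and Ifi35 had -0.43 and 0.20 and -0.22 and 0.07. Of the sensors, the GTPases and the kinase and Parp group 0 genes were 2-fold lower in wild-type cells, beside 1.08% of all genes. On the scanner software's log ratios, where 6.75% of all genes passed, Dhx58 (-1.19), Iigp1 (-1.09), Igtp (-1.02) and Gbp3 (-1.02) were. Ifi44, which was dim at 6.87 in wild-type RNA, had -1.90 and 0.29 on the scanner software's log ratios.

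Brightness was also compared among the 4 RNAs, and across arrays it depends on how brightness was scaled. The wild-type RNA was the dimmest of the 4 for 30 of 38 genes, beside 26.2% of all genes. It lay below the other three by more than their own range for 18 of 38, beside 8.25% of all genes. All 10 genes that were 2-fold lower in wild-type cells were among them, with a gap from wild type to the dimmest RNA of the floxed line of 0.75 to 1.35 and a range within that line of 0.07 to 0.73. The choice of these 10 fixed the gap to the Cy3 RNA of the same array, and every other gap uses the same wild-type value. The 2 Cy3 RNAs also lay close together, with differences of -0.47 to 0.19 over the list. That all 10 were among them is therefore a description and no separate support.

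**Figure D2:**
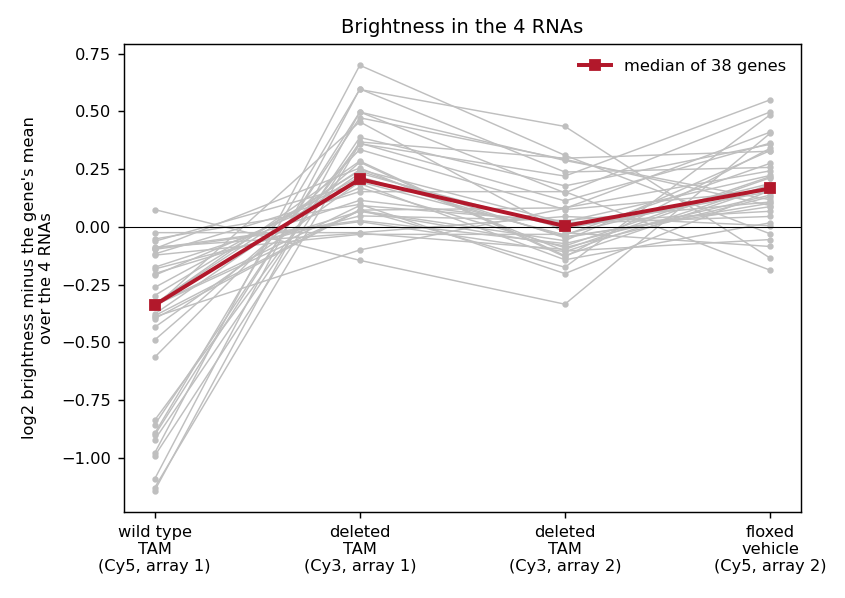
Log2 brightness of each measured gene in the 4 RNAs, less the gene's own mean (grey lines, 38 genes), with the median in red. The wild-type RNA lies lowest for 30 genes. Its gap to the dimmest RNA of the floxed line has a median of 0.27, beside a median range of 0.31 among the 3 RNAs of that line. The gap exceeds the range for 18 of the 38 genes.

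Between the 2 Cy5 RNAs, vehicle-treated floxed cells exceeded wild-type cells at 37 of 38 genes, beside 48.2% of all genes, by a median of 0.52, beside -0.01. For 7 genes the difference was at least 2-fold, beside 1.87% of all genes. The 2 Cy3 RNAs carry the same labels, genotype and treatment, and so show how far cultures of 1 kind, on different arrays, lay apart. Here 33 of 38 genes were dimmer on the array of the treatment comparison, beside 58.9% of all genes, by a median of 0.21 (values from -0.47 for Usp18 to 0.19 for Ifit2), and 0 were 2-fold apart, beside 0.0198%. The size of both differences depends on how brightness is scaled between arrays. With the channel medians set equal, the median of the list was 1.15 for Cy5 and 0.48 for Cy3, where all genes had 0.59 and 0.61.

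**Figure D3:**
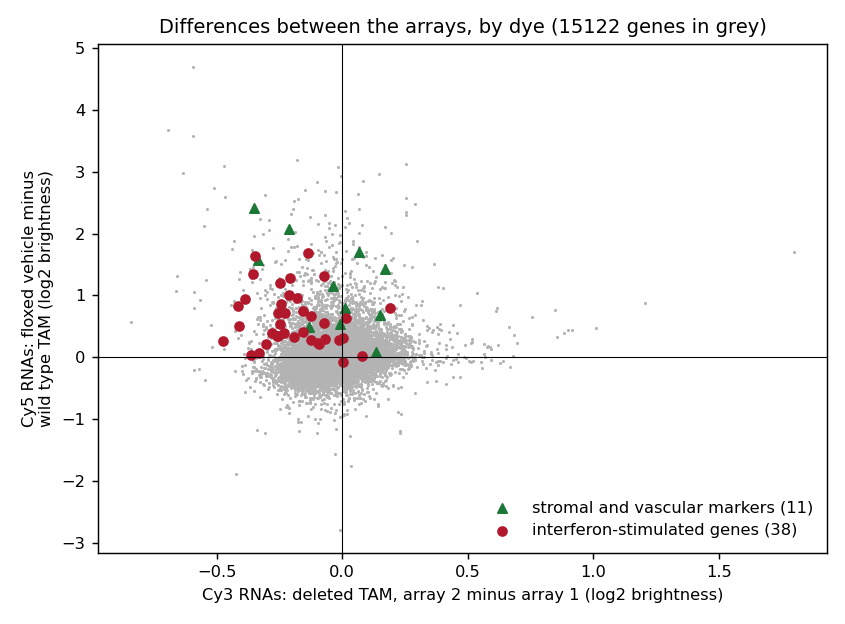
For each measured gene, the x axis is the log2 brightness difference between the 2 Cy3 RNAs and the y axis that between the 2 Cy5 RNAs, with interferon-stimulated genes as circles, stromal and vascular markers as triangles and all 15122 measured genes in grey. The circles spread upward to 1.68 but stay within -0.47 and 0.19 sideways; the axes differ in scale.

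Further probes of the listed genes were read as well. Of 17 other measured probes of 12 genes, 15 were below 0 in the genotype comparison and 16 had a positive difference between the arrays. Counted by gene, 52.2% and 51.4% of all measured genes did. These probes belong to the same listed genes and are no separate support. Their median difference, 0.28, was smaller than that of the brightest probes. The 5 other probes that were not above background had a median difference of -0.06.

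Genes upstream of the response had median log2 ratios between -0.14 and 0.22. Of 15 genes on the array for interferons and their receptors, 10 were measured, with a median log2 ratio of -0.14 in both comparisons. Past 2-fold were 0 of them on either array. Of all measured genes 1.08% were lower and 0.589% higher in wild type, and 0.377% lower and 1.73% higher in vehicle. At such shares, 0 of 10 genes says little. Ifna2, Ifna5, Ifna9 and Ifnab were dim, at 6.55 to 6.88 in wild-type RNA, where log2 ratios are understated. Ifnar1 had log2 ratios of -0.17 and -0.11 and Ifnar2 of -0.30 and 0.11. Ifnb1, the interferon that most cells make first, was well above background in 1 of the 4 RNAs, the vehicle one, and has no usable ratio. The 10 genes of Jak-Stat signaling and its feedback had median log2 ratios of 0.15 and 0.22. Socs1, which interferon induces to shut off the kinases, had -0.13 and 0.07. Of 13 measured sensing and adaptor genes, Zbp1, a nucleic acid sensor that is itself interferon-induced, was the 1 past 2-fold, with -1.04 and 0.29. Of all measured genes, 1.08% were at least 2-fold lower in wild type. Its log2 brightness was 7.47 in wild-type RNA and 8.51, 8.57 and 8.28 in the others.

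A second list of 44 interferon-induced genes, of which 38 were measured, had the same order of values in part. In the genotype comparison 34 were below 0 (52.2% of all measured genes), with a median of -0.28, and 3 were at least 2-fold lower (1.08% of all). These were Apol9b (-1.50), Lgals3bp (-1.29), a secreted glycoprotein, and Ifi204 (-1.21), a DNA-binding protein of the p200 family. In the treatment comparison the median was 0.10, and 0 were 2-fold lower (0.377% of all genes) or 2-fold higher (1.73%) in vehicle. The difference between the arrays was at least 1 for 7, beside 2.17% of all genes. Others of this list hardly differed between the arrays, such as Irf8 (-0.14 and -0.18) and Psme2 (0.05 and 0.10).

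**Figure D4:**
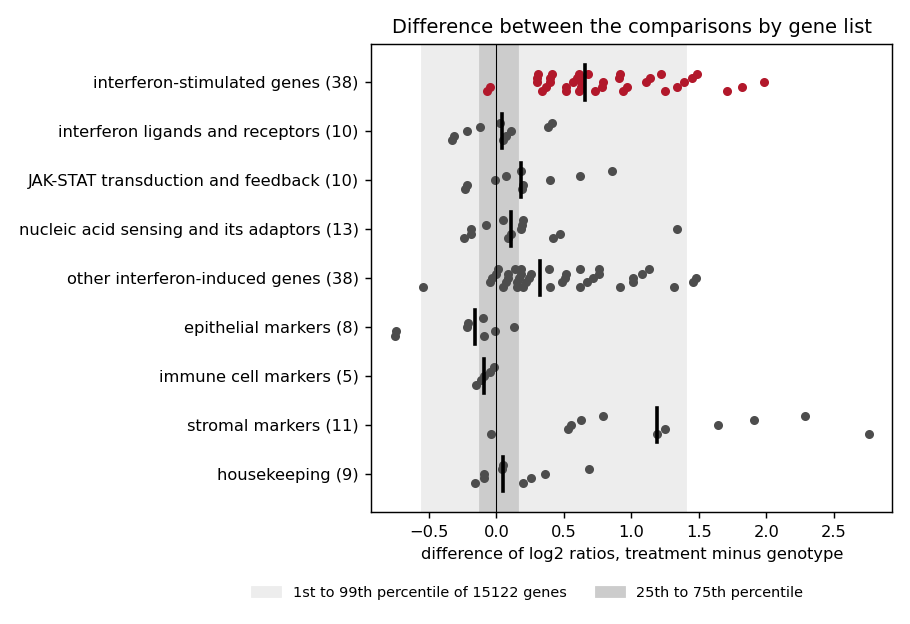
The x axis is the difference of the log2 ratios, treatment minus genotype, for every measured gene of each list (points, with the number of genes in brackets), the black bar is the median of the list, and the bands mark the percentiles of all 15122 measured genes. The median is 0.66 for the interferon-stimulated genes and 1.19 for the stromal and vascular markers.

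Stromal markers moved with the interferon-stimulated genes, and their part in the result was not tested. Of 12 stromal and vascular genes 11 were measured, with a median log2 ratio of -0.72 between genotypes and of 0.47 between treatments. The wild-type RNA was the dimmest for all 11, beside 26.2% of all genes. Their summed brightness was 35600 in wild-type RNA, 60700 and 54700 in the deleted RNAs and 90900 in vehicle RNA, whereas that of the 39 interferon-stimulated genes was 41200, 64500, 55200 and 59100. The collagens Col3a1 (-1.63 and 1.13), Col1a1 (-1.26 and 1.03) and Col1a2 (-0.84 and 1.07) exceeded 2-fold in the treatment comparison, as did 1.73% of all genes and 0 interferon-stimulated genes. The endothelial marker Pecam1 was not above background in any RNA. In RNA of a whole culture, fewer cells of a type and less RNA per cell cannot be told apart.

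Most immune cell markers were near background. Of 14 on the array 9 were not above background in any RNA, among them Ptprc, Cd3e, Itgam and Siglech. The other 5, Cd68, Csf1r, Itgax, Fcer1g and Cd79a, were well above background in all 4 RNAs. The summed brightness of the 14 was between 1590 and 1850 in the 4 RNAs. The macrophage marker Cd68 had a log2 brightness of 8.38 in wild-type RNA, 9.07 and 9.09 in the deleted RNAs and 8.32 in vehicle RNA. Its log2 ratios were -0.69 and -0.77, alike on both arrays. Of the epithelial genes, Krt5 (2.13 and 1.91), Krt14 (2.07 and 1.86) and Trp63 (1.65 and 1.55) were 2-fold higher in Cy5 on both arrays and Krt18 (-0.28 and -1.01) 2-fold lower in the treatment comparison. The median difference of the 8 epithelial genes between the arrays was -0.16.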

How the data were processed

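The authors' scanner software, Agilent Feature Extraction 10.5.1.1, gave for each spot a mean intensity and a local background intensity, as deposited without correction, together with processed intensity values after background subtraction, detrending and dye normalization. Per the file headers the array annotation is on mm9. The deposited log10 ratio is that of processed Cy5 over Cy3. A table of log2 ratios was also deposited by the authors (limma is named in the submitters' processing notes), whose steps are not given in the sources used here. Against the log10 ratios its slope was 3.12 and 3.14, so its scale and direction are known, and its medians were -0.00989 and -0.00344.

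From the mean intensities, background was corrected by normexp with an offset of 50 (limma 3.58.1, R 4.3.3), control spots (1639 of 45018) were then left out, and loess was run within each array. Outlier spots (126 and 130) were left out, and 0 were saturated. The offset understates log2 ratios of dim probes. Brightness was made comparable between arrays with Aquantile. Of the genes' brightest probes, 35 carry an accession of the same RefSeq symbol, 1 of another and 3 were not matched. Code was tested on simulated data. Python 3.11.15, pandas 2.3.3 and matplotlib 3.10.9 did the rest.

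The members, lists and rules were chosen with earlier results of these data known. Described in full were the 6 largest and 3 smallest differences, members past 2-fold, and Irf7, Irf9, Stat2, Isg15, Mx1 and Mx2. Of other lists these were genes past 2-fold and Ifnb1, Ifnar1, Ifnar2 and Socs1, and some named by this rule are not reported here. With 1 array a comparison, no test was made, and the number of arrays limits the precision. Housekeeping genes (9 measured) had a median difference of 0.05 between the arrays. Alternatives covered background correction, normalization, the values of the scanner software and of the authors, the filter on dim probes, the choice of probe, the fold and the scaling of brightness.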

Additional observations from a re-analysis of the deposited data

Results flagged for a closer look

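Of the measured interferon-stimulated genes, 7 had log2 ratios of at least 0.3 in size and of opposite sign in the genotype and the treatment comparison, each below 0 in the former. The share of all measured genes under this rule is not given here, so the count has no background to be read against. At any size, 18.4% of all measured genes were lower in wild type and higher in vehicle. The difference, treatment minus genotype, was 1.98 for Rtp4, 1.82 for Ifi27, 1.25 for Rsad2, 1.11 for Iigp1, 0.94 for Dhx58, 0.92 for Gbp3 and 0.79 for Cmpk2. Each comparison is 1 array, and these differences were not tested.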

How the results depend on the processing

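Of 90 values recomputed, 64 moved by less than the spread between spots or, for counts, by at most 1.5 times, 25 moved by more and 1 changed sign. The cause was not tested. The median log2 ratio of the genotype comparison was -0.57 with an offset of 10, -0.73 without background subtraction, -1.02 on the scanner software's log ratios, -0.73 on the authors' table and -0.35 with the mean over all probes. The median difference between the arrays was, in the same order, 0.79, 0.87, 0.98, 0.82 and 0.58, and 1.11 with median centring. The treatment median was 0.66 with median centring, where all measured genes had 0.42, and 0.09 with the mean over probes.

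Genes at least 2-fold lower in wild type numbered 20 on the scanner software's log ratios, where 6.75% of all genes passed. With a line of 1.5-fold in place of 2-fold, 16 genes were lower in wild type, 2 were higher in vehicle, and 25 had ratios that differed by at least 1.5-fold between the arrays. The shares of all genes past that looser line are not given here, so these larger counts are not a stronger result. In the treatment comparison 1 gene was 2-fold lower on the scanner software's log ratios and 1 was 2-fold higher with median centring, again without a share of all genes. A difference of at least 1 was found for 17 genes without background subtraction (3% of all genes), 19 on the scanner software's log ratios (6.27%), 17 on the authors' table (3.06%) and 25 with median centring (5.91%). The median Cy5 difference was 0.37 with the mean over probes and 1.15 with channel medians set equal, and with the latter the Cy3 difference turned to 0.48, below the 0.61 of all genes. No paired analysis was possible because each comparison has 1 array and no test was made. With 1 array a comparison, no replicate could be left out.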
